A study of Sus scrofa with 12 samples.

Results

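The calpain system was followed through the growth of a back muscle, the longissimus dorsi, by the 4 genes CAPN1, CAPN2, CAPN3 and CAST. Members were all probe sets that the platform's probe annotation assigned to one of these symbols. They were 9 of 23999 probe sets (a probe set is a group of short DNA probes that together measure a transcript), and 4 of 6765 annotated symbols. CAPN1 and CAPN2 had 1 probe set each, CAPN3 had 2 and CAST had 5. Where a gene had several, they carry letters from the brightest on, and the array's own identifiers are in the plot of their values.

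The study asked which genes change across the genome while this muscle develops. Muscle was taken from Meishan pigs, a Chinese breed, from fetuses at 65 days post coitus (dpc) and from pigs aged 3, 60 and 120 days. Each stage had 3 samples described as biological replicates, with 1 Affymetrix array per sample, 12 in all. For the fetal stage, littermate fetuses of one sow counted as 1 individual, so a fetal array may average several animals while a postnatal array does not. All groups were of the same breed, on commercial feeding, and no genotype, sex or treatment distinguishes them in the labels.

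Calpains are cysteine proteases that calcium switches on and that cut their substrates at few places instead of degrading them whole. CAPN1 and CAPN2 are the catalytic subunits of the ubiquitous calpain-1 and calpain-2, each of which pairs with the small subunit CAPNS1, and calpastatin, the product of CAST, is their specific inhibitor. CAPN3 is the calpain of skeletal muscle, where it is anchored on titin in the sarcomere, and loss of it in humans causes a limb-girdle muscular dystrophy. In pigs the system is best known for the softening of meat after slaughter.

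Array medians lay between 49.1 and 52.6 intensity units, and no array was rescaled. The summed intensity of 7 measured muscle fibre markers (CKM, MYH2, MYH7, TNNC2, TNNI2, ATP2A1 and PYGM) was 19238 to 29105 in the fetus, 40095 to 46403 at 3 days, 44491 to 49359.7 at 60 days and 50177 to 50922 at 120 days. Relative to the fetus, 6 of these markers were called higher at 3 days, beside 20.3% of all probe sets. Between 3 and 60 days 0 were called, beside 0.786% higher and 0.742% lower of all probe sets, with a median log2 change of 0.037. The 60-day arrays of PYGM, MYH2 and ATP2A1 were all above the 3-day arrays, while those of CKM, MYH7, TNNC2 and TNNI2 overlapped. The means of TNNC2 and TNNI2 were lower at 60 days, at 9567 against 10277 and 6201 against 7445. The share of all probe sets without overlap was not counted. The sum of 6 fibroblast markers was 9056 to 14278 in the fetus and 3341 to 6511 over the postnatal arrays, and that of 3 myoblast markers was 541 to 839 and 156 to 389. Of these, 4 fibroblast markers and 1 myoblast marker were called lower at 3 days, beside 22.6% of all probe sets. From the fetus to 3 days the means of MYF5 and MYOD1 went from 376 to 47.3 and from 267 to 163. That of NCAM1 went the other way, from 84.3 to 116. Among the fibroblast markers the mean of COL3A1 also rose, from 48.6 to 56.8. The sum of 5 adipocyte markers was 557 to 844 in the fetus and 1881 to 2244 at 3 days, where 4 of the 5 were called higher (median log2 change 1.13). Fetal replicate 2 had the highest fibre and fibroblast sums of the fetal arrays. On fetal replicate 3 the sum of 5 leukocyte markers was 2214, against 198 and 222 on the other fetal arrays. In bulk muscle, a change in the number of cells of a type and a change in RNA per cell cannot be told apart.

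Of the 9 member probe sets, 8 passed the filter on low values and were tested. The test was limma with Benjamini-Hochberg adjustment over 16166 probe sets, and an adjusted p under 0.05 is a call. Across the 4 stages, 3 of the 8 differed by the F test, against 46.9% of all probe sets tested. These were both probe sets of CAPN3 and the brightest of CAST. Log2 changes are on the scale of log2(intensity + 21), where 21 is a constant that damps low values, and ± is the standard error of the fit unless SD is named.

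CAPN3 rose through the first 3 stages. Its brighter probe set, here CAPN3 A, read 345, 505 and 353 in the fetus, 684, 689.6 and 619 at 3 days, 1525, 1641 and 1270 at 60 days, and 1434, 1130.2 and 1162 at 120 days. Every array at 3 days was above every fetal array, and every array at 60 and 120 days was above every array at 3 days, while 60 and 120 days overlapped. The stage means were 401 ± 90.1, 664 ± 39.4, 1479 ± 189.9 and 1242 ± 167 (SD, n = 3).

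From the fetus to 3 days the CAPN3 probe set rose by 0.72 ± 0.20 in log2 (1.64-fold, 95% interval 1.21 to 2.23, adjusted p = 0.0134 by limma). At this step 20.3% of all probe sets were called higher and 22.6% lower. The rise to 60 days was 1.12 ± 0.20 (2.18-fold, 1.61 to 2.96, limma adjusted p = 0.0208), where 0.786% of all probe sets were called higher and 0.742% lower. From 60 to 120 days the log2 difference was -0.25 ± 0.20 (95% interval -0.69 to 0.19, limma adjusted p = 0.852). No probe set was called at that last step (0% higher and 0% lower, with 1021 at an unadjusted p under 0.05). Over the whole span the 120-day level was 3.02-fold the fetal level (2.22 to 4.09, limma adjusted p = 8.01e-05), and 23.4% of all probe sets were called higher and 25% lower. The 60-day level was 3.58-fold the fetal level (limma adjusted p = 3.83e-05, with 39.1% of probe sets called in either direction). The 120-day level was 1.83-fold the 3-day level (limma adjusted p = 0.0318, with 4.42% called in either direction). The order of levels was fetus, 3 days, then 60 and 120 days, whose difference was within the spread between arrays.

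The CAPN3 A comparisons of 60 and 120 days with the fetus were called in all 24 alternative settings, whereas those with 3 days lost their call when some single arrays were left out. Without fetal replicate 1 the rise from the fetus to 3 days had an adjusted p of 0.0511 by limma (log2 0.625). Without 3-day replicate 1, 3-day replicate 2 or 60-day replicate 1, the rise from 3 to 60 days had limma adjusted p values of 0.0829, 0.0740 and 0.0591, with log2 changes of 1.145, 1.15 and 1.098. The difference between 120 and 3 days lost its call without any 1 of the 3-day or 120-day arrays (limma adjusted p from 0.0680 to 0.158), with log2 changes from 0.77 to 0.939. Centring each array on its hybridization controls, bacterial and phage transcripts added in known amounts, lowered the median log2 change of all probe sets to -0.260 from the fetus to 3 days. On that scale the first CAPN3 rise was 0.459 (limma adjusted p = 0.115), and 20.4% of the calls at that step were higher in place of 47.3%. Over the span from the fetus to 120 days that centring moved the median to -0.413 and the share of calls that were higher from 48.3% to 15.1%, and between 3 and 60 days from 51.4% to 29.3%.

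The second CAPN3 probe set, CAPN3 B, was dim and exceeded the filter on 8 of 12 arrays, 6 of them at 60 and 120 days. It read 20.1, 36.5 and 31.4 in the fetus, 67.1, 19.3 and 29.2 at 3 days, 64.3, 111 and 149 at 60 days, and 78.7, 43.5 and 48.5 at 120 days. The 60-day arrays were all above the fetal arrays, and 1 of the 3-day arrays lay among those of 60 days. The 60-day level was 2.49-fold the fetal level (95% interval 1.58 to 3.93, limma adjusted p = 0.00463), and was called in all 24 alternatives. The 120-day level was 1.53-fold the fetal level (0.974 to 2.42, log2 0.62 ± 0.30, limma adjusted p = 0.109), called in 2 of 24 with log2 values from 0.201 to 0.926. From 3 to 60 days the log2 difference was 1.14 ± 0.30, close in size to that of the brighter probe set, and did not pass (limma adjusted p = 0.0901). The first-step difference was 0.18 ± 0.30 (95% interval -0.48 to 0.83, limma adjusted p = 0.66). Across the 12 arrays the CAPN3 probe sets correlated at r = 0.75 (Spearman rho 0.75), a description over points that share 4 stages.

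**Figure D1:**
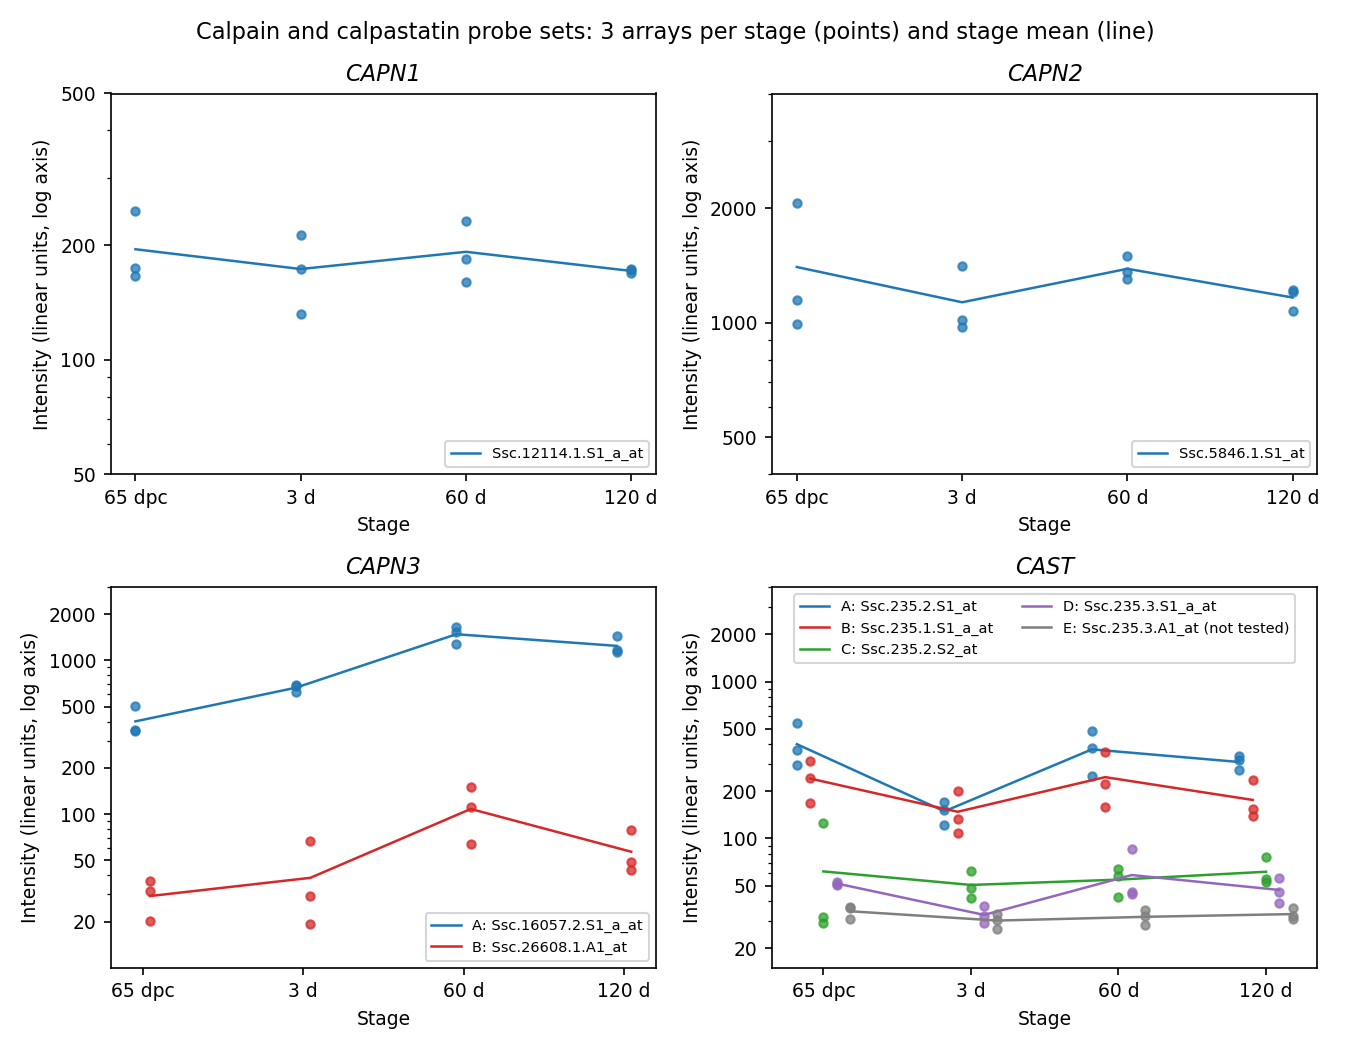
Intensity of the 9 calpain and calpastatin probe sets by stage, on logarithmic axes with 1 panel per gene, where points are single arrays (3 per stage) and lines join stage means. The brighter CAPN3 probe set climbs from 345 to 505 in the fetus to 1270 to 1641 at 60 days, and CAST A dips to 122 to 172 at 3 days.

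CAPN1, the catalytic subunit of calpain-1, was not called in any comparison. Its probe set read 166, 245 and 174 in the fetus, 173, 213 and 132 at 3 days, 160.3, 232 and 184 at 60 days, and 169, 173 and 172 at 120 days. The 4 stages overlapped throughout, and the 120-day arrays lay closest together, at 171 ± 2.02 (SD, n = 3). The F test gave an adjusted p of 0.824 by limma. From the fetus to 3 days the fold was 0.893 (95% interval 0.654 to 1.22), from 3 to 60 days 1.11 (0.812 to 1.51), and from 60 to 120 days 0.911 (0.668 to 1.24). Between the fetus and 120 days the fold was 0.901 (0.660 to 1.23, limma adjusted p = 0.571). With centring on the hybridization controls that net difference became -0.566 in log2 and was called (limma adjusted p = 0.0327).

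CAPN2, the catalytic subunit of calpain-2, was bright on every array, between the 96.6th and the 98.7th percentile of its array. Its probe set read 995, 2057 and 1151 in the fetus, 1016, 973 and 1407 at 3 days, 1495, 1356 and 1305 at 60 days, and 1217, 1204 and 1076 at 120 days. The spread was widest in the fetus, where replicate 2 stood above the other arrays, and narrowest at 120 days (SD 573 against 78.1). The arrays of 60 and 120 days did not overlap, yet their log2 difference of -0.25 ± 0.25 did not pass (95% interval -0.80 to 0.31, limma adjusted p = 0.886). The fold from the fetus to 3 days was 0.841 (0.573 to 1.23) and from 3 to 60 days 1.23 (0.841 to 1.81), with limma adjusted p values of 0.451 and 0.609. The F test gave an adjusted p of 0.652 by limma. Without fetal replicate 2 the log2 difference between 3 days and the fetus was 0.061 in place of -0.25, so its sign rested on that array.

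CAST, the calpain inhibitor, dipped at 3 days in its brightest probe set. CAST A read 292, 540.4 and 365 in the fetus, 122, 153 and 172 at 3 days, 375, 485 and 249 at 60 days, and 336, 272 and 314 at 120 days. All 3-day arrays lay below all arrays of the other stages, and the fetal, 60-day and 120-day arrays overlapped. The stage means were 399 ± 128, 149 ± 25.2, 369.7 ± 118 and 307 ± 32.5 (SD, n = 3).

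The fall of this CAST probe set from the fetus to 3 days was to 0.414-fold (95% interval 0.277 to 0.619, log2 -1.27 ± 0.27, limma adjusted p = 0.00272). It was called in all 24 alternatives, with log2 values from -1.53 to -1.02. Between 3 and 60 days the fold was 2.24 (1.5 to 3.35), which did not pass with a limma adjusted p of 0.0525, and was called in 5 of the 24 alternatives. The 120-day level was 1.94-fold the 3-day level (1.30 to 2.90, limma adjusted p = 0.0658, called in 6 of 24). Relative to the fetus, the folds at 60 and 120 days were 0.928 (0.620 to 1.39) and 0.803 (0.537 to 1.2), with limma adjusted p values of 0.771 and 0.346. With centring on the hybridization controls the 120-day difference was -0.733 in log2 and was called (limma adjusted p = 0.0488). In the fit to all arrays without that centring, the fall from the fetus to 3 days was the only call among the 6 comparisons of stages. Over the same step 6 of 7 fibre markers were called higher and 4 of 6 fibroblast markers lower. Of all probe sets 20.3% were called higher and 22.6% lower. Between 3 and 60 days 0 markers of either list were called, beside 0.786% higher and 0.742% lower of all probe sets. Median log2 changes were 0.037 for fibre and -0.08 for fibroblast markers. Values of single fibre markers at that step are given above. The part of these markers in the CAST values was not tested.

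The other CAST probe sets were dimmer and gave no call in the fit to all arrays. CAST B read 168, 311 and 242 in the fetus, 109, 133 and 202 at 3 days, 224, 356 and 159 at 60 days, and 155, 139 and 235 at 120 days. It too was lowest on average at 3 days, but its stages overlapped, and its fold from the fetus to 3 days was 0.647 (95% interval 0.403 to 1.04, limma adjusted p = 0.123). CAST D read 51.0, 50.9 and 53.2 in the fetus, 32, 28.8 and 37.0 at 3 days, 44.2, 85.4 and 45.8 at 60 days, and 45.6, 39.1 and 56.4 at 120 days. Its 3-day arrays lay below all others, with a fold of 0.736 against the fetus (0.569 to 0.954) that missed the threshold at a limma adjusted p of 0.0548. Both followed the brightest CAST probe set across the 12 arrays, at r = 0.82 and r = 0.80 (Spearman rho 0.83 and 0.71). With hybridization-control centring both were called lower at 3 days, at log2 values of -0.889 and -0.701 (limma adjusted p = 0.0475 and 0.00926).

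CAST C ran differently from the brightest. It read 31.6, 29.0 and 125 in the fetus, 48.1, 61.7 and 41.9 at 3 days, 42.4, 64.3 and 57.5 at 60 days, and 52.6, 55.3 and 76.3 at 120 days. It correlated with CAST A at r = 0.02 (Spearman rho -0.01). Its high fetal reading came from replicate 3, the array with the leukocyte marker sum of 2214, and the part of such cells was not tested. Without that array its log2 difference between 3 days and the fetus went from -0.03 to 0.472 (limma adjusted p = 0.0477), and that between 120 days and the fetus from 0.17 to 0.674 (limma adjusted p = 0.00846). CAST E stayed between 26.5 and 36.5, was above the filter on 2 fetal arrays, and was not tested. The annotation ties all 5 CAST probe sets to the same RefSeq transcript, so it does not say which calpastatin variants each measures.

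**Figure D2:**
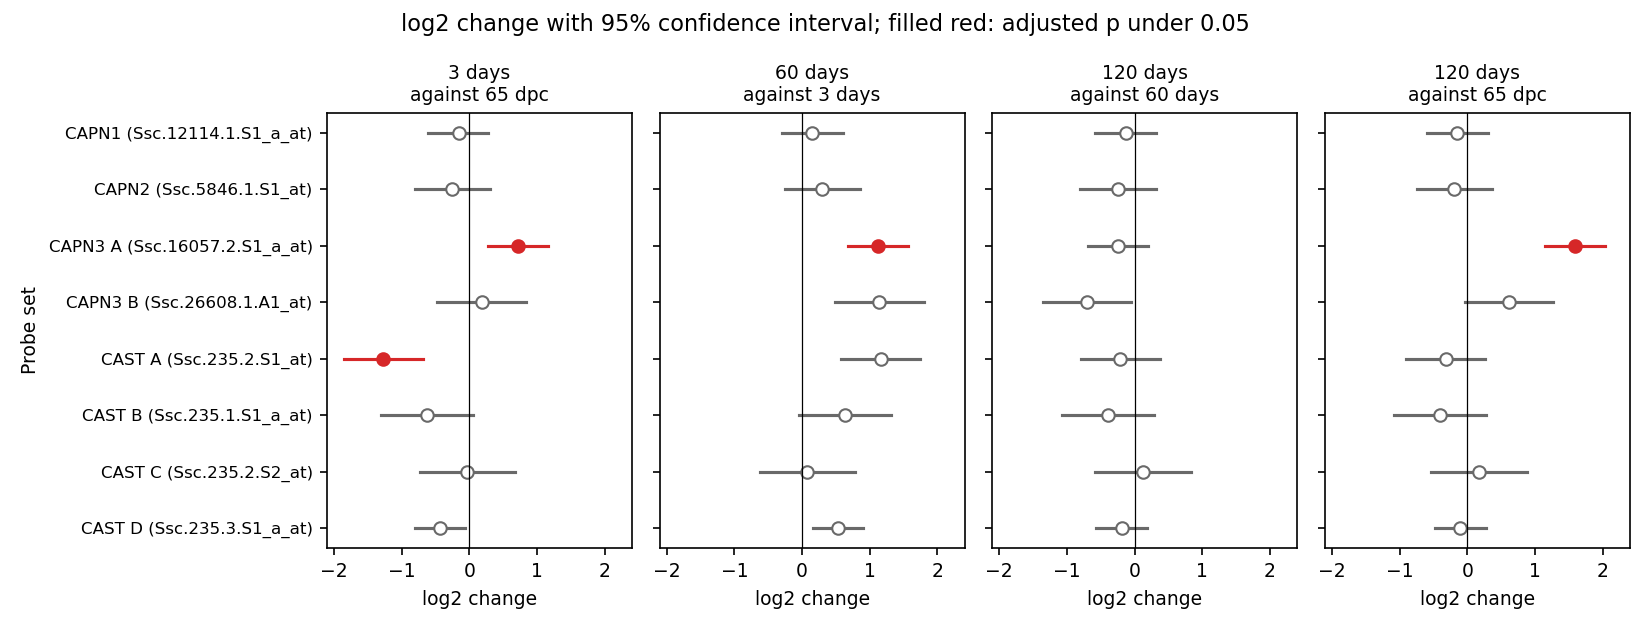
Log2 change of the 8 tested member probe sets between stages, with 95% intervals of the limma fit. CAPN3 A lies above 0 at both early steps, CAST A lies below 0 from the fetus to 3 days and above it from 3 to 60 days without passing the adjusted threshold, and the intervals of CAPN1 and CAPN2 include 0.

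Over the members, 1 of 8 probe sets was called higher and 1 lower from the fetus to 3 days, against 20.3% and 22.6% of all probe sets tested. From 3 to 60 days 1 was called higher, against 0.786%, and from 60 to 120 days 0 of the 8 were called, against 0%. Between the fetus and 120 days 1 was called higher, against 23.4%, and 0 lower, against 25%. Between the fetus and 60 days 2 were called, against 39.1%, and between 3 and 120 days 1, against 4.42%. Nothing is read from these counts about the members as a group.

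Levels of different probe sets are not on one scale, but the difference between a pair of genes on the same array can be followed across stages. The log2 difference of CAPN3 minus CAST, set to a mean of 0 in the fetus, was 2.27, 2 and 1.70 at 3 days, 1.93, 1.69 and 2.23 at 60 days, and 2, 1.94 and 1.79 at 120 days. The fetal arrays lay at 0.20, -0.12 and -0.07, so the postnatal arrays all stood apart from them. With CAST A, the difference of CAPN3 from CAST thus shifted at the first step, by 1.99 ± 0.29 (SD, n = 3). Its mean was 1.95 and 1.91 at the later stages. At 3 days that shift combined a rise of CAPN3 with the dip of CAST, and at 60 and 120 days it followed CAPN3.

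For the ubiquitous calpains the difference from CAST was raised mainly at 3 days. CAPN1 minus CAST was 1.37, 1.36 and 0.59 at 3 days, with a mean of 0.09 at 60 days and 0.17 at 120 days. CAPN2 minus CAST was 1.13, 0.79 and 1.16 at 3 days, with means of 0.16 and 0.13 later. All 3-day arrays of both lay above all fetal arrays, while the 60-day arrays spread from -0.20 to 0.54 for CAPN1 and from -0.29 to 0.57 for CAPN2. These are descriptions without a test, and they depend on the CAST probe set. With CAST B in its place, the 3-day differences were 0.47 for CAPN1, 0.38 for CAPN2 and 1.35 for CAPN3. Over 15 alternatives, with CAST B as 1 of them, CAPN3 minus CAST was 1.81 to 2.08 at 60 days and 1.82 to 2.01 at 120 days. With CAST B its 3-day value thus lay below the later values. CAPN3 minus CAPN1 went from 0.88 ± 0.23 at 3 days to 1.86 ± 0.24 at 60 days and 1.74 ± 0.20 at 120 days (SD, n = 3). CAPN2 minus CAPN1 lay between -0.09 and 0.07 in its stage means, but its 3-day arrays read -0.25, -0.57 and 0.56 (SD 0.58).

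**Figure D3:**
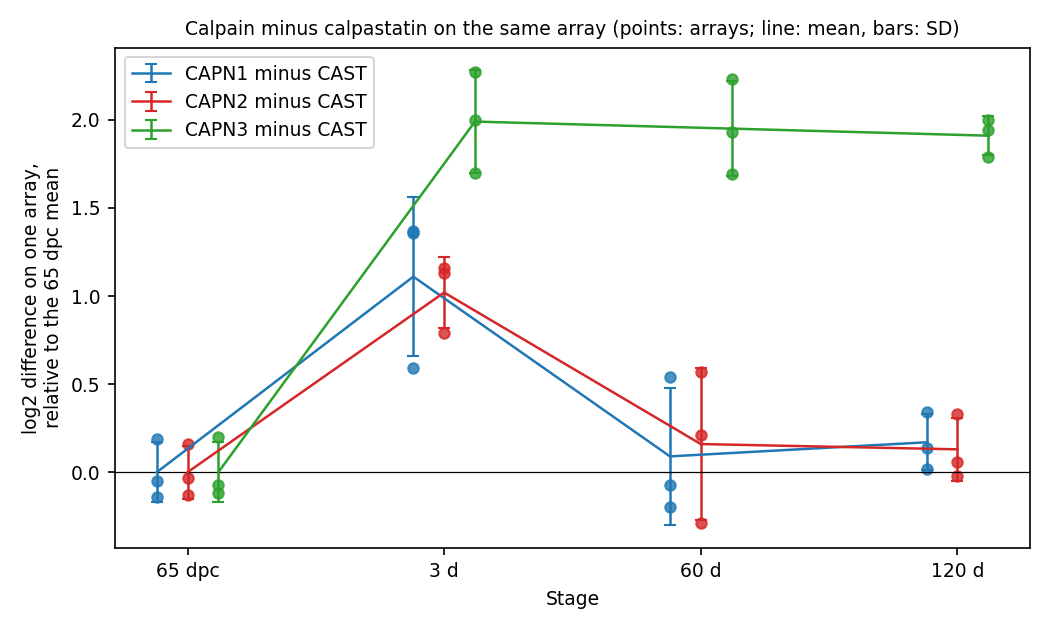
Log2 difference of each calpain minus CAST on the same array, relative to the fetal mean, by stage, where points are single arrays, lines join stage means and bars are SD (n = 3). The CAST probe set plotted is CAST A. CAPN3 minus CAST stands at 1.69 to 2.27 on all postnatal arrays, whereas CAPN1 and CAPN2 minus CAST are raised at 3 days and return near 0.

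Of a family list of 17 calpain, small subunit and calpastatin genes, 7 had an annotated probe set and all 7 were measured. Besides the 4 members these were CAPN7, CAPN10 and CAPNS1. Counting 1 probe set per gene, CAPN3 and CAST were the family genes called at the first step, and CAPN3 alone from 3 to 60 days and between the fetus and 120 days. Shares of all probe sets called higher and lower were 20.3% and 22.6%, 0.786% and 0.742%, and 23.4% and 25% in turn. The median log2 change of the family was 0.029, 0.30 and -0.12 in these comparisons, against 0.066, -0.033 and 0.030 over 5765 genes.

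CAPN7, a calpain without the calcium-binding domain of the classical ones, read 284, 369.7 and 211 in the fetus and 452, 452 and 377 at 120 days. These arrays did not overlap, and the fold of 1.48 (95% interval 1.04 to 2.09) missed the threshold at a limma adjusted p of 0.0616. CAPN10, another such calpain, was level within its spread, from 156 to 225 on all arrays, with a fold of 1.08 between the fetus and 120 days (0.839 to 1.4, limma adjusted p = 0.599).

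CAPNS1, the small subunit shared by calpain-1 and calpain-2, was measured by a pair of probe sets that disagreed. CAPNS1 A, the brighter on average, read 402, 247 and 420.5 in the fetus, 438, 475 and 629 at 3 days, 196, 689.6 and 422 at 60 days, and 333, 313 and 312 at 120 days. It gave no call, and its fold between the fetus and 120 days was 0.923 (95% interval 0.537 to 1.58, limma adjusted p = 0.81). CAPNS1 B read 104, 97.0 and 92.5 in the fetus, 159, 139 and 330.3 at 3 days, 360.3, 1072 and 475 at 60 days, and 302, 444 and 485 at 120 days. All its postnatal arrays were above the fetal ones, and its fold between the fetus and 120 days was 3.57 (2.02 to 6.31, limma adjusted p = 0.00188). Its separate steps to 3 and to 60 days did not pass (limma adjusted p = 0.082 and 0.0861). Whether a rise of CAPNS1 over the fetus was called hence depends on the probe set.

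Proteins of the sarcomere, costamere and cytoskeleton that calpains are known to cut formed the next list. Of 30 such genes 22 were measured, and from the fetus to 3 days 8 were higher (NEB, SYNM, TNNI2, TNNT1, TNNT3, TPM1, TPM2 and TTN), 5 were lower (EZR, FLNA, SPTAN1, TPM3 and VIM) and 9 were not called, beside 20.3% higher and 22.6% lower of all probe sets. Their median log2 change was 0.093, against 0.066 over all genes. Between 3 and 60 days 0 were called in either direction, beside 0.786% higher and 0.742% lower of all probe sets. Between the fetus and 120 days 8 were higher and 4 lower, beside 23.4% and 25% of all probe sets. With centring on the hybridization controls the last counts were 4 higher and 9 lower. Without fetal replicate 1, fetal replicate 2 or 3-day replicate 3, 3 were lower at the first step in place of 5.

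VIM, the filament protein of mesenchymal and immature muscle cells, had a fetal mean of 4819 ± 1131 and fell to 1716 ± 9.51 at 3 days (SD, n = 3), a fold of 0.365 (limma adjusted p = 1.35e-04). EZR, which links actin to the cell membrane, fell from 589 ± 154 to 145 ± 8.86 (limma adjusted p = 2.14e-04). SYNM rose from 484 ± 184 to 1056 ± 326 (limma adjusted p = 0.0104), and stood at 1982 ± 339.8 at 60 days. SPTAN1, the spectrin whose cleavage is widely used as a mark of calpain activity, read 369, 403 and 277 in the fetus, 257, 215 and 141 at 3 days and 113, 118 and 128 at 120 days. Its net fold was 0.384 (95% interval 0.268 to 0.549, limma adjusted p = 5.80e-04), and its first-step call (limma adjusted p = 0.0251) was lost without fetal replicate 1 (0.0684), fetal replicate 2 (0.087) or 3-day replicate 3 (0.0981). That call was also lost with quantile normalization (limma adjusted p = 0.0778) and with only the 6 arrays compared (0.0596). The fibroblast marker sum fell over the same step as VIM and EZR, and its part was not tested.

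Genes that bind or depend on CAPN3, together with other limb-girdle dystrophy genes, were mostly higher after birth. Of 29 listed, 14 were measured. At the first step 8 were higher (CAMK2B, CMYA5, DNAJB6, MYOT, RYR1, SGCD, TCAP and TTN) and 1 lower (ANXA2). Of all probe sets 20.3% were higher and 22.6% lower at that step. The list's median log2 change was 0.64, against 0.066 over all genes. From 3 to 60 days 2 were higher (CAMK2G and CMYA5) and 0 lower, with a median of 0.25 against -0.033, and 0.786% of all probe sets were higher. That count was 1 without 3-day replicate 1 and 0 with only the 6 arrays compared, where limma adjusted p was 0.0867 for CAMK2G and 0.0575 for CMYA5. Between the fetus and 120 days 9 were higher and 1 lower, beside 23.4% and 25% of all probe sets, with a median of 0.88 against 0.030. The part of the fibre markers, whose values are given above, was not tested.

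CMYA5, or myospryn, a costamere protein that binds CAPN3, read 371, 709 and 486 in the fetus, 712, 1068 and 1024 at 3 days, 2870.2, 2390.3 and 2762 at 60 days, and 2443, 2433 and 2271 at 120 days. Like CAPN3 it was called higher at both early steps, at 1.79-fold (limma adjusted p = 0.0135) and 2.85-fold (limma adjusted p = 0.0107), with 60 and 120 days overlapping. The first call was lost without fetal replicate 1 (0.0582) or 3-day replicate 2 (0.0569), and the second without 3-day replicate 1 (0.0531). The first was also lost with hybridization-control centring (limma adjusted p = 0.0781) and with only the 6 arrays compared (0.0503). RYR1, the calcium release channel of the sarcoplasmic reticulum, rose from 524 ± 127 to 1083 ± 37.8 at the first step (SD, n = 3, limma adjusted p = 0.005).

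The genes of calmodulin-dependent kinase II were called at different steps, a difference that was not itself tested. CAMK2B went from 35.4 ± 6.11 in the fetus to 98.0 ± 25.2 at 3 days (SD, n = 3, limma adjusted p = 3.04e-04) and read 98.1 at 60 days. Its fetal arrays, at 32.4, 31.4 and 42.4, were near the filter, which lay between 33.9 and 37.3 on the arrays. CAMK2G had 2 probe sets, and the values given are those of 1 of them. CAMK2G read 186, 248 and 147 in the fetus, 191, 227 and 99.3 at 3 days, and 494, 538 and 666 at 60 days. Its 60-day level was 3.15-fold the 3-day level (95% interval 2.10 to 4.74, limma adjusted p = 0.0133), with no overlap between those arrays.

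**Figure D4:**
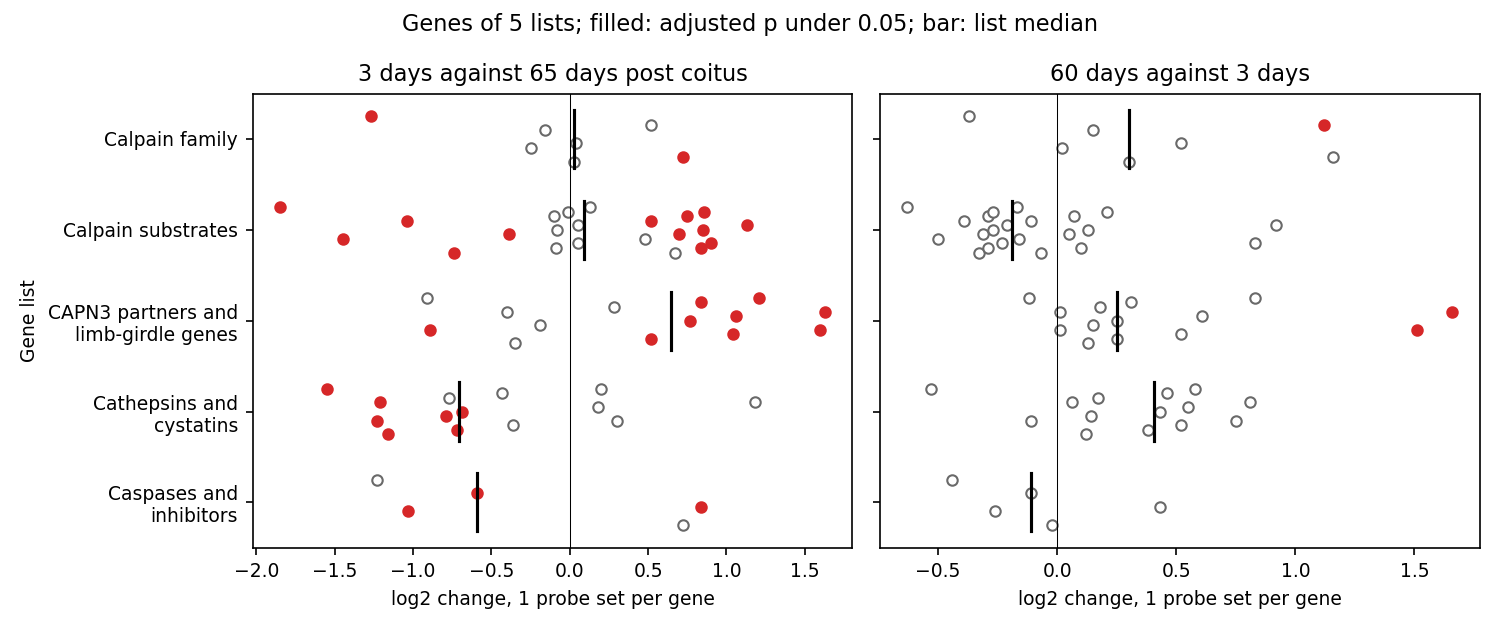
Log2 change of the measured genes of 5 lists from the fetus to 3 days (left) and from 3 to 60 days (right), 1 point per gene, filled where called by limma, with a bar at the list's median. At the first step the CAPN3 partner list has 8 of 14 genes called higher and the cathepsin list 7 of 14 lower. Of all probe sets 20.3% were higher and 22.6% lower at that step. At the second step 2 partner genes and CAPN3 are the called points, beside 0.786% higher and 0.742% lower of all probe sets.

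A further list held lysosomal proteases, cystatins, which inhibit cysteine proteases, and lysosomal membrane proteins. Of 18 listed genes 14 were measured, and at the first step 0 were higher and 7 lower (CST3, CTSB, CTSH, CTSK, LAMP1, LAMP2 and LGMN), with a median log2 change of -0.70 against 0.066 over all genes, and 22.6% of all probe sets were lower. Of the 7, CTSB, CTSH and CTSK are cathepsins, LGMN is the protease legumain, CST3 a cystatin, and LAMP1 and LAMP2 lysosomal membrane proteins. The next step had 0 calls, beside 0.786% higher and 0.742% lower of all probe sets, with a median of 0.40. Between the fetus and 120 days 2 were higher (CST6 and CTSC) and 3 lower (CST3, CTSK and LGMN), beside 23.4% and 25% of all probe sets. With centring on the hybridization controls these net counts were 1 higher and 7 lower. The count of higher genes was also 1 without fetal replicate 1, fetal replicate 2 or any 1 of the 120-day arrays.

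CST3, the secreted inhibitor cystatin C, had a fetal mean of 992 ± 310.4, fell to 313 ± 19.9 at 3 days and stood at 288 ± 4.33 at 120 days (SD, n = 3, limma adjusted p = 2.25e-04 for the first step). It had 3 probe sets, and the values given are those of 1 of them. CTSK, a collagen-degrading cathepsin, fell from 561 ± 64.3 to 239 ± 19.1 (limma adjusted p = 0.00155). CTSH, an aminopeptidase, read 191, 157 and 438 in the fetus and 90.1, 83.4 and 98.6 at 3 days (limma adjusted p = 0.00573), with its highest value on the fetal array of the high leukocyte sum. CST6, another cystatin, went the other way, from 81.8, 48.0 and 80.9 in the fetus to 327, 277 and 381 at 120 days (3.86-fold, 95% interval 1.89 to 7.91, limma adjusted p = 0.00519). The fibroblast marker sum fell with CST3 and CTSK, and its part was not tested.

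Caspases, the cysteine proteases of cell death, and their inhibitors had 5 measured genes of 14 listed. At the first step CASP2 was higher and BIRC5 and CASP6 were lower, beside 20.3% higher and 22.6% lower of all probe sets. The same 3 genes were called between the fetus and 120 days, beside 23.4% higher and 25% lower of all probe sets. CASP6 fell from 217 ± 24.7 to 96.6 ± 20.7 at 3 days (SD, n = 3, limma adjusted p = 6.84e-04), and BIRC5, or survivin, which also serves in mitosis, from 108 ± 13.1 to 64.5 ± 5.56 (limma adjusted p = 0.00486). CASP2 rose from 109 ± 23.3 to 209 ± 3.60 (limma adjusted p = 0.00169). Its net call (limma adjusted p = 0.0317) was lost without fetal replicate 1 (0.114), fetal replicate 2 (0.0921), or 120-day replicate 1 (0.0606), 2 (0.0639) or 3 (0.105). The call was also lost with only the 6 arrays compared (limma adjusted p = 0.0559). With hybridization-control centring the net log2 change was 0.053 in place of 0.47 (limma adjusted p = 0.842). DIABLO, which relieves caspase inhibition, had a fold of 1.64 at 3 days against the fetus (95% interval 1.03 to 2.63) and was not called (limma adjusted p = 0.0806). CASP6, CASP2 and DIABLO had 2 probe sets each, and the values given are those of 1 per gene.

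The genes whose log2 values ran most like each member were taken by Pearson r over the 12 arrays, among 5539 symbols with 1 probe set each. The arrays share 4 stages, so a high r can come from stage means alone, and these values are a description. For CAPN3 they were NRDC at 0.973, CMYA5 at 0.969, IDE at 0.959 and VEGFA at 0.956. NRDC, the metallopeptidase nardilysin, had stage means of 210, 287, 523 and 480.1. IDE, insulin-degrading enzyme, had 359.9, 597, 1336 and 983, and VEGFA, an angiogenic growth factor, had 555, 658, 1204 and 1101. As in CAPN3, the highest of the 4 means was at 60 days.

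For CAST they were ANKRA2 at 0.961, EIF3E at 0.921, RBL2 at 0.909 and POLI at 0.903. EIF3E, a translation initiation factor subunit, had stage means of 2839.8, 1710.4, 2616 and 2409, and RBL2, a retinoblastoma-like repressor of the cell cycle, had 434, 235, 497 and 392. ANKRA2, an ankyrin repeat protein, had 157, 76.5, 141 and 137, and POLI, a translesion DNA polymerase, had 97.3, 35.8, 90.5 and 66.6. All of these had their lowest mean at 3 days.

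The closest genes to CAPN2 were VAMP3 at 0.943, RNF10 at 0.882, GAPVD1 at 0.859 and EIF4H at 0.858. VAMP3, a vesicle fusion protein, read 447, 801 and 459 in the fetus, so it shared the high reading of CAPN2 on fetal replicate 2. RNF10 (915), GAPVD1 (166) and EIF4H (1600) were also highest there of all 12 arrays. For CAPN1 no gene was as close, with SMTN at 0.785, AGPAT5 at 0.700, ABLIM1 at 0.685 and TACC2 at 0.666.

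**Figure D5:**
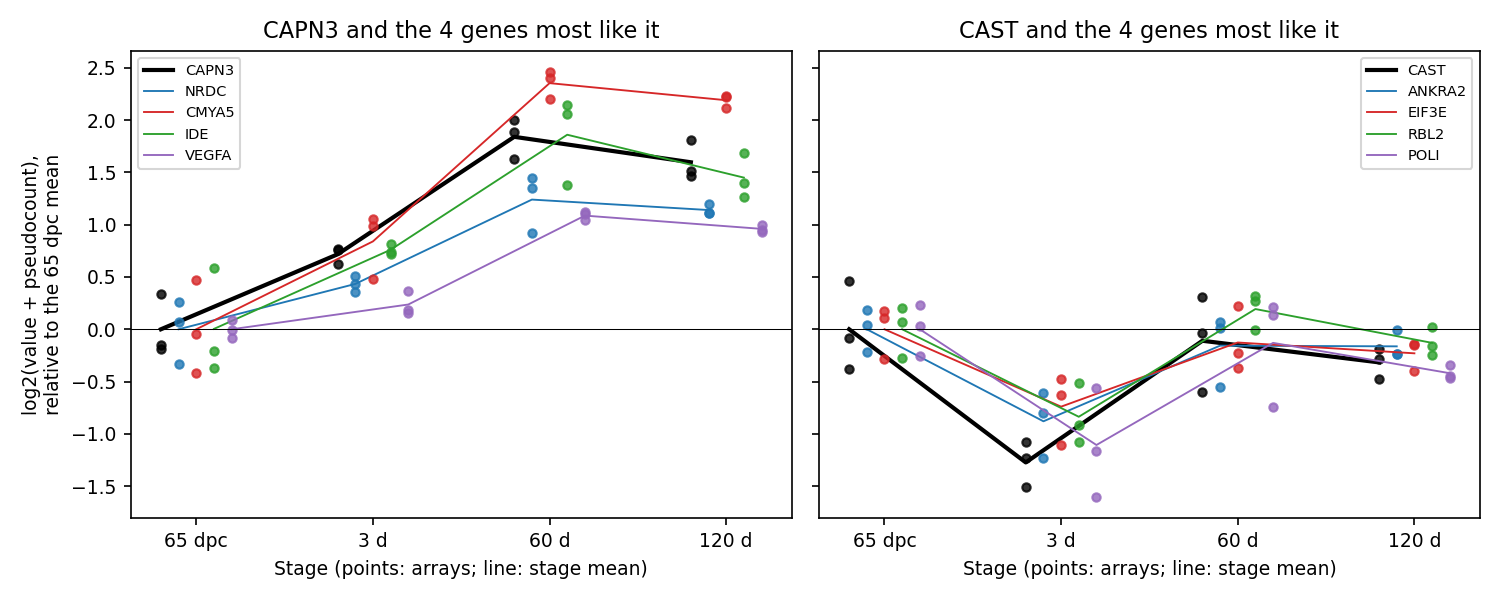
Log2 values relative to the fetal mean for CAPN3 (left) and CAST (right), in black, with the 4 genes most like each, where points are single arrays and lines join stage means. The CAPN3 group is highest on average at 60 days and the CAST group lowest at 3 days.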

How the data were processed

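Biotin-labelled RNA of 12 muscle samples was hybridised to Affymetrix porcine arrays, 1 per sample, per the labels' protocols. What the authors deposited is 1 linear intensity for each probe set and array. GCOS 1.4 appears in the submitters' processing notes, whereas how probes were summarised, corrected for background and scaled is not given in the sources used here. The table held 24123 probe sets, of which 124 were controls. In the platform annotation of 2016, 10069 had a single symbol, 198 had several, and 13732 that it does not list are unnamed here.

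Intensities were raised by 21, their overall 25th percentile, before log2. A probe set had to exceed the 40th percentile of an array on 3 or more arrays, which left 16166 (67.4%). A single limma fit with a variance trend estimated the 4 stage means from all 12 arrays (8 residual and 4.26 prior degrees of freedom), was tested on simulated data, and gave two-sided tests with Benjamini-Hochberg adjustment over all kept probe sets. The number of arrays limits the precision, and p-values set stage differences against the spread between these samples, pooled over the 4 stages. A gene with several kept probe sets was represented in lists by that of the highest mean. The genes named are all members, the measured family genes, up to 4 genes per other list with the smallest adjusted F p, and the 4 genes most correlated with each member. The second CAPNS1 probe set, and genes named only within list counts, stand outside that rule. Members and lists were chosen with earlier results of these data known.

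Alternatives were pseudocounts of 1 and 51, no filter or one at the 60th percentile, quantile normalization, median and hybridization-control centring, no variance trend, array weights, the replicate number as a block, only the 6 arrays compared, each array left out, and both arrays that an earlier analysis set apart left out. The fit used limma 3.58.1 under R 4.3.3, and the figures used matplotlib 3.10.9 under Python 3.11.15.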

Additional observations from a re-analysis of the deposited data

How the results depend on the processing

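Of the 7 member changes called, 24 alternatives each gave 168 values, of which 154 were still called and 0 had turned sign. Of 972 values for uncalled changes, 63 turned sign. The number of member probe sets called from the fetus to 3 days (2) ranged from 1 to 3 when single arrays were left out. From 3 to 60 days (1) it was 2 with the filter at the 60th percentile, 2 without a variance trend, 4 with array weights, 0 with only the 6 arrays compared, and 0 to 2 with single arrays left out. Between the fetus and 120 days (1) it was 4 with hybridization-control centring, 2 with array weights, 2 with only the 6 arrays, and 1 to 2 with single arrays left out. Between 3 and 120 days (1) it was 0 with that centring, 4 with array weights, 2 with only the 6 arrays, 2 without fetal replicate 2 and 60-day replicate 1 together, and 0 to 2 with single arrays left out. The first-step log2 difference of CAST C ranged from -0.299 to 0.472. Replicate numbers were not used to pair the samples in the main fit. Deviations from stage means correlated at -0.424 to 0.297 between same-numbered arrays (median 0.0898, 18 pairs). Between differently numbered arrays they correlated at -0.408 to 0.646 (median -0.0414, 36 pairs), with the highest between fetal replicate 2 and 60-day replicate 1. With the replicate block the count between 3 and 120 days was 0, with CAPN3 at a limma adjusted p of 0.0522, and the block changed no other member call. The overall F test was not computed for only the 6 arrays. Causes of these differences were not tested. Dim probe sets, near the filter, limit what can be said of CAPN3 B and of 3 CAST probe sets.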

Other observations

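Single arrays read high on several of the probe sets named above. On 60-day replicate 2 CAPNS1 B read 1072, against 360.3 and 475 on the other 60-day arrays. On the same array CST6 read 731 against 137 and 212, DIABLO 671 against 314 and 326, and CAST D 85.4 against 44.2 and 45.8. On 3-day replicate 3 CAPNS1 B read 330.3 against 159 and 139, CST6 312 against 142 and 132, and DIABLO 597 against 344 and 346. These genes were singled out after their values were seen.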
